A study of Mus musculus with 6 samples.

Results

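The transferrin family of iron-binding proteins and the receptors that take up iron-loaded transferrin were followed in mouse brain through 4 genes, Meltf, Ltf, Tfrc and Tfr2. Their members were all non-control probe sets, each a set of short probes for the same transcript, whose platform annotation gave one of these symbols and no other. This gave 7 of 45037 probe sets, 1 for Meltf, 1 for Ltf, 3 for Tfrc and 2 for Tfr2, and each was kept apart. The study hybridised brain RNA to an Affymetrix whole-genome mouse array, 1 array per mouse. It compared 4 melanotransferrin knockout mice (MTf -/-, strain label C57BL/6 - Lucy) with 2 wild-type mice (MTf +/+, strain label C57BL/6). All were females of 123 days from 1 litter, and the labels name no treatment. The sources used here do not say which part of the gene was removed or in which cells. Knockouts are numbered 1 to 4 and wild types 1 to 2 below, by accession order, as names alone.

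Transferrins are glycoproteins that bind ferric iron tightly and keep it soluble. Meltf encodes melanotransferrin, the member that is anchored in the cell membrane and the gene targeted in these mice, and Ltf encodes lactotransferrin (lactoferrin), an iron-binding protein of secretions and of neutrophil granules. Tfrc encodes transferrin receptor 1, which carries iron-loaded transferrin into cells through clathrin-coated pits and, on brain endothelium, stands at the entry of iron into the brain. Tfr2 encodes transferrin receptor 2, best known as an iron sensor of liver and of red cell precursors. Transferrin itself (Trf) lay only on a probe set annotated to more than 1 gene and is not reported.

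Meltf and Tfrc both lie on chromosome 16, with 31 annotated genes between them, of which 19 code for proteins, in the gene order of assembly GRCm38.p6. Ltf lies on chromosome 9 and Tfr2 on chromosome 5. The DNA at the starts of Ltf, Tfrc and Tfr2 is printed because these genes had the largest positive log2 fold change, the brightest probe set and the most annotated starts among the members. Each window runs from 250 bases before an annotated start to 25 bases after it, 5′ to 3′, from RefSeq on GRCm38.p6, plus strand. Capitals mark matches, on either strand, to 4 short motifs that were searched. The first was ACGTG, the core of the element through which genes respond to low oxygen. The second was TGACGT, the core of the site bound by cyclic AMP response factors. The third was GGGCGG, the box recognised by Sp1 and its relatives. The last was TATAAA, the box that positions transcription starts in many genes. No 2 of the matches in these windows overlapped.
Ltf, chr9:111019042-111019316: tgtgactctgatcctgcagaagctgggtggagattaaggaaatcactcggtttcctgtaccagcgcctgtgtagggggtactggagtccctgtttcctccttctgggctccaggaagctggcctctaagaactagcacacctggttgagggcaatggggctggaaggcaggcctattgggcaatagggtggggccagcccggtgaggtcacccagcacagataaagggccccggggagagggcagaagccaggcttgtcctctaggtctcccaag
Tfrc, chr16:32608646-32608920: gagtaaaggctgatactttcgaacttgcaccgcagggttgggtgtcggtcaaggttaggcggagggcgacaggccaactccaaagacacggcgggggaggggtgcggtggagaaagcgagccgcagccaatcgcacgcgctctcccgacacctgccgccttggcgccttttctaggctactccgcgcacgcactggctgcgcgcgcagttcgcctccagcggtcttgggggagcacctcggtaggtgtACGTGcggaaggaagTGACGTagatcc
Tfr2, chr5:137569590-137569864: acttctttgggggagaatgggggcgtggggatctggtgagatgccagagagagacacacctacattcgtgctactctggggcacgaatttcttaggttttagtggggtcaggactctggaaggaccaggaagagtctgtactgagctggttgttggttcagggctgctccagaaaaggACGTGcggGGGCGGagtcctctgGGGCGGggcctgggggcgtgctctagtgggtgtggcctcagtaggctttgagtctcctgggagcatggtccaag
The printed Tfrc window held 1 match to ACGTG, which began 2 bases before the annotated start, and 1 match to TGACGT, which began 13 bases after it. A second annotated start of Tfrc lies just downstream, and its window, which overlaps the printed one and is not shown, held the same 2 matches and 2 matches to GGGCGG, the first of them 35 bases before that start. The first Tfr2 window held 1 match to ACGTG, 72 bases before the start, and 2 matches to GGGCGG. Of its other 2 windows, not shown, the second held 1 match to ACGTG and the third none of the 4 motifs. The Ltf window, and the corresponding Meltf window, held none of the 4 motifs. Over 32851 start windows of this length, the low-oxygen core was found in 18.2%, the cyclic AMP response core in 7.17%, the Sp1 box in 34.4% and the last motif in 13.0%. The GC content was 64.0% at Tfrc, 58.9% at Ltf and 58.5% at Tfr2, and the Tfrc window held 28 CG dinucleotides against 4 at Ltf and 8 at Tfr2.

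Signals are linear intensities as deposited, with the same trimmed mean on every array, and fold changes are knockout minus wild type on the scale of log2(signal + 49.5). Array wild type 1 stood apart, with 24.5% of its probe sets below 49.5, against 17.6% to 20.2% on the other 5 arrays. Knockout 2 held little cerebellum: the summed signal of 10 cerebellar markers was 36068 there and 127675 to 173488 on each other array. Knockout 3 carried pituitary RNA, with a summed signal of 11709 over 7 hormone markers against 1001 to 1718 elsewhere. The neuronal and oligodendrocyte lists ranged from 193426 to 218503 and from 150841 to 192968 in knockout brains, against 183434 to 210093 and 150056 to 188251 in wild-type brains, so neural tissue was read on all arrays. Choroid plexus markers summed to 72623 to 109206 in knockout brains, against 60056 and 99688 in wild-type brains, and astrocyte markers to 136415 to 143828, against 115956 and 145100. Of 8 astrocyte markers 4 had a log2 fold change above 0 and 2 an unadjusted p below 0.05, Gfap at -0.63 and Aqp4 at -0.64, each with every knockout below both wild types, and both had a limma adjusted p of 0.737. Over all probe sets, 4.81% had every knockout below both wild types. In whole tissue, fewer cells of a type and less RNA per cell cannot be told apart.

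Of the 7 member probe sets, 0 passed a limma adjusted p of 0.05, as did 0 of all 45037 (0.0%). Without wild type 2 there were 171 among all probe sets and 0 among the members, and without wild type 1 there were 0 in all. At an unadjusted p below 0.05 there was 1 member probe set, that of Ltf, against 3045 or 6.76% of all probe sets (4.92% higher and 1.84% lower in the knockout). It was also the only member whose groups did not overlap, with every knockout above both wild types, which held for 11.3% of all probe sets. No member had every knockout below both wild types, against 4.81% of all probe sets. The log2 fold change was above 0 for 5 of the 7, with a median of 0.28, while 60.3% of all probe sets lay above 0 with a median of 0.078. After median centring, which brought the median of all probe sets to -0.14, the dimmest Tfrc probe set turned negative, as it did after quantile normalisation, and the other 6 kept their sign. The members passing the dim filter, which removes the dimmest 40% of all probe sets by mean log2 level, were 4 of 7: those of Ltf and Tfr2 and the brightest of Tfrc.

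**Figure D1:**
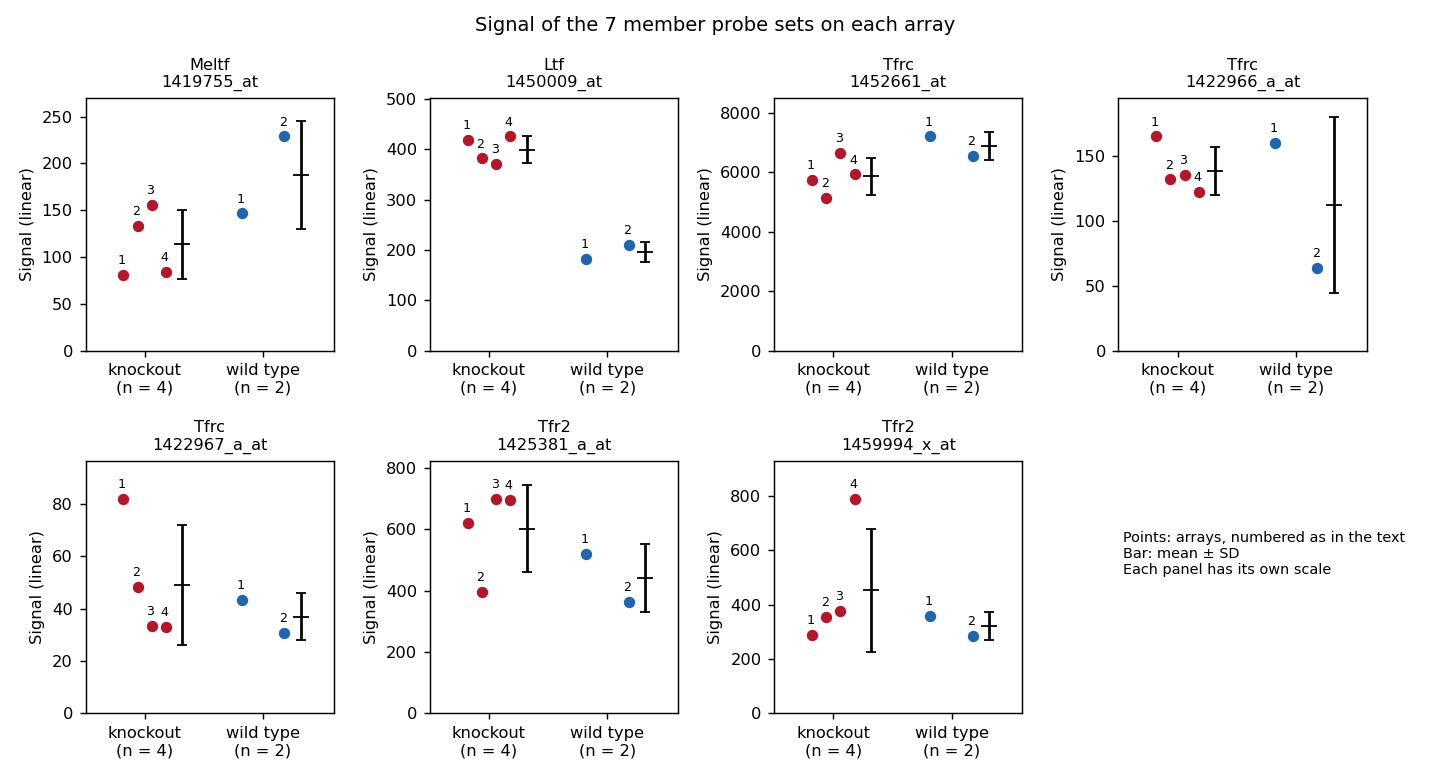
Signal (linear scale, axis from 0, a separate scale per panel) of the 7 member probe sets on each array, with knockout mice in red left of wild-type mice in blue and bars giving mean ± SD. Ltf is the panel in which the groups stand apart, at 370.8 to 425.5 in knockout brains and 182.4 and 209.8 in wild-type brains.

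Meltf, the targeted gene, was dim and its groups overlapped. Its signal was 80.7, 132.9, 155.9 and 84.1 in knockouts 1 to 4, against 146.5 and 228.7 in wild types 1 and 2. Knockout 3 read above wild type 1, while knockouts 1 and 4 were the lowest of the 6. The mean was 113 ± 37.0 (SD, n = 4) in knockout brains and 188 ± 58.1 (SD, n = 2) in wild-type brains. The log2 fold change was -0.55 ± 0.38 (standard error), with a 95% interval from -1.39 to 0.29 (limma adjusted p = 0.784, 2-sided exact permutation p = 0.2). Leaving out wild type 1 moved it to -0.80, and leaving out wild type 2 moved it to -0.29. Its mean level stood at the 38.2 percentile of all probe sets, within the share that the dim filter removes. The sources used here do not place its probes inside or outside the deleted part of Meltf, so this signal is no check of the genotype.

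Ltf, the other iron binder of the family, read higher in every knockout. Its signal was 418.5, 381.8, 370.8 and 425.5 in knockouts 1 to 4, against 182.4 and 209.8 in wild types 1 and 2. The lowest knockout was 370.8 and the highest wild type 209.8, and within each group the highest array exceeded the lowest by a factor of 1.15. The mean was 399.2 ± 26.9 (SD, n = 4) in knockout brains and 196.1 ± 19.4 (SD, n = 2) in wild-type brains. The log2 fold change was 0.87 ± 0.26 (standard error), with a 95% interval from 0.30 to 1.44. It did not pass, with a limma adjusted p of 0.737, although its unadjusted p of 0.00693 ranked 400 among the 45037 probe sets. The exact permutation p was 0.0667, the smallest that 4 against 2 arrays allow. With 1 array left out at a time the log2 fold change lay between 0.79 and 0.95. The groups stayed apart after quantile normalisation, at 0.68, and after median centring, at 0.66, where 7.21% and 4.11% of all probe sets had every knockout above both wild types.

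Neutrophil genes were set beside Ltf because lactotransferrin is stored in neutrophil granules. Of 12 neutrophil genes 11 were measured, 7 passed the dim filter, 5 had a log2 fold change above 0, and 0 had an unadjusted p below 0.05. Their summed signal was 1565 to 3719 in knockout brains and 3031 to 3450 in wild-type brains, so the wild types lay inside the knockout range. Ngp, a granule protein, read 450.3, 307.1, 493.8 and 564.2 in knockouts 1 to 4, against 554.9 and 587.3 in wild types 1 and 2, and the granule peptide gene Camp averaged 97.7 ± 24.7 (SD, n = 4) in knockout brains and 107.2 ± 121.3 (SD, n = 2) in wild-type brains. The wild types of Camp read 193 and 21.5, and its log2 fold change was 0.15 although its mean signal was lower in knockout brains. The calcium-binding alarmin S100a8 read 545, 191.9, 897.7 and 723.4 in knockouts 1 to 4, against 990.5 and 628.1 in wild types 1 and 2. Some granule enzymes had higher means in knockout brains, among them the elastase gene Elane, at 223 ± 133 (SD, n = 4) in knockout brains and 151 ± 22.8 (SD, n = 2) in wild-type brains. In log2 fold change Elane was at 0.28, Mmp8 at 0.15, Mmp9 at 0.22 and Mpo at 0.18, all with an unadjusted p above 0.05. The part of neutrophil content in the Ltf values was not tested.

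Tfrc was read by 3 probe sets of very different brightness. On the bright one, 1452661_at, the signal was 5735.3, 5145.8, 6661.8 and 5923.4 in knockouts 1 to 4, against 7199.9 and 6543 in wild types 1 and 2. Knockout 3 lay above wild type 2, so the groups overlapped, and the other 3 knockouts were below both wild types. The mean was 5867 ± 625.1 (SD, n = 4) in knockout brains and 6871 ± 464.5 (SD, n = 2) in wild-type brains. The log2 fold change was -0.23 ± 0.14 (standard error), with a 95% interval from -0.53 to 0.072 (limma adjusted p = 0.758, exact permutation p = 0.267). This interval corresponds to a knockout level of 0.69 to 1.05 times that of wild type. After median centring the log2 fold change was -0.44 and the groups no longer overlapped, with a limma adjusted p of 0.569. Under that scaling 14.0% of all probe sets had every knockout below both wild types. After quantile normalisation the log2 fold change was -0.19.

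The other 2 Tfrc probe sets, whose suffix _a marks probes shared by several transcripts of 1 gene, were dim. Probe set 1422966_a_at read 165.4, 132.3, 136 and 122.4 in knockouts 1 to 4, against 160.2 and 64.2 in wild types 1 and 2. The wild types alone spanned a factor of 2.50 and enclosed 3 of the knockouts. Its log2 fold change was 0.28 ± 0.38 (standard error), with a value of -0.16 once wild type 2 was left out and 0.72 once wild type 1 was. It was 0.058 after quantile normalisation and 0.069 after median centring. Probe set 1422967_a_at read 81.8, 48.4, 33.4 and 33.1 in knockouts 1 to 4, against 43.4 and 30.6 in wild types 1 and 2, and 5 of the 6 values were below the added 49.5. Its log2 fold change was 0.17 ± 0.31 (standard error), and it was -0.026 and -0.047 after quantile normalisation and median centring. Without knockout 1, its one value above the added 49.5, it was 0.021, without wild type 1 it was 0.27 and without wild type 2 it was 0.060. Both dim probe sets lay below the dim filter.

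The signs of the 3 Tfrc probe sets differed, and the differences were tested within arrays. Over the 4 pairs of probe sets within a gene, 3 for Tfrc and 1 for Tfr2, 0 passed. The fold change of the bright probe set minus that of 1422966_a_at was -0.51 (exact permutation p = 0.267, adjusted p = 0.533 over the 4 pairs), and minus that of 1422967_a_at it was -0.40 (exact permutation p = 0.2, adjusted p = 0.533).

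**Figure D2:**
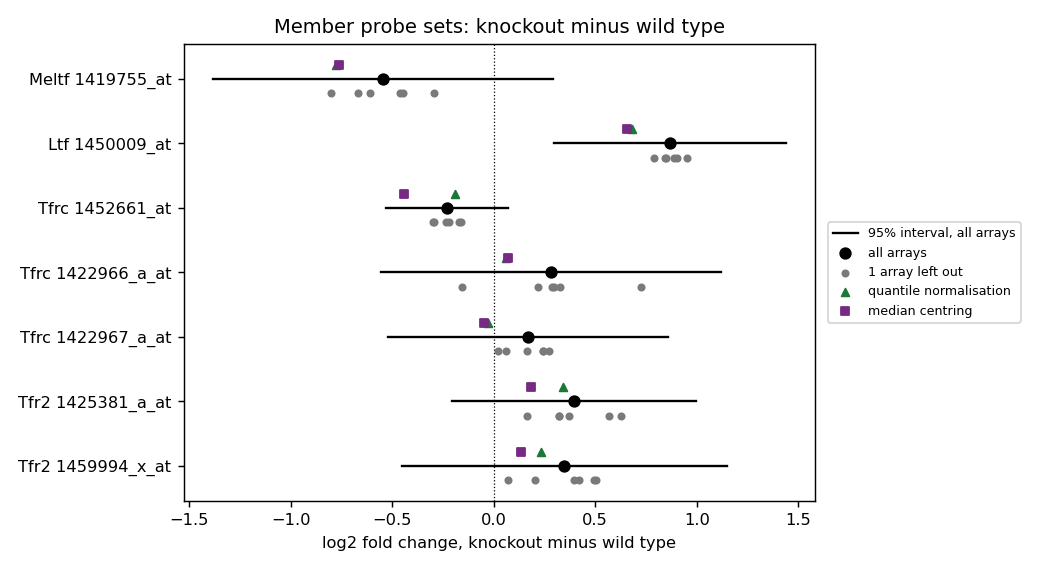
Log2 fold change (knockout minus wild type) of the 7 member probe sets, with black points and lines for the estimate and its 95% interval, grey points for fits with 1 array left out, and triangles and squares for 2 other scalings. The interval of Ltf, from 0.30 to 1.44, is the one that does not cross 0, and both dim Tfrc probe sets have estimates on either side of 0.

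Endothelial and red cell genes were set beside Tfrc, since brain endothelium and red cell precursors carry much of this receptor. Of 12 endothelial markers 11 were measured, 3 had a log2 fold change above 0 and 1 had an unadjusted p below 0.05. Their summed signal was 13040 to 14550 in knockout brains and 14348 and 19547 in wild-type brains. Wild type 1 was highest both in this sum and in bright Tfrc signal, and knockout 2, the brain with little cerebellum, was lowest in both. Wild type 2 lay below knockouts 3 and 4 in the sum, but above knockout 4 in bright Tfrc signal. Without wild type 1 the log2 fold change of bright Tfrc was -0.16, and without knockout 2 it was -0.17. Slc2a1, the glucose transporter of the blood-brain barrier, read 4874.7, 4957.8, 4701.6 and 5604.8 in knockouts 1 to 4, against 7407 and 4952.7 in wild types 1 and 2. The part of endothelial content in the Tfrc values was not tested. Of 10 red cell markers 6 were measured, with a summed signal of 616.3 to 1232 in knockout brains and 768.5 and 1346 in wild-type brains. Among them Alas2, the first enzyme of heme synthesis in red cell precursors, read 396.9 to 844.4 in knockout brains and 418.3 and 895.5 in wild-type brains, and 4 of the 6 lay below the dim filter. Of the 6, 4 had a log2 fold change above 0, and 0 had an unadjusted p below 0.05. The part of red cell content in the Tfrc values was not tested.

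**Figure D3:**
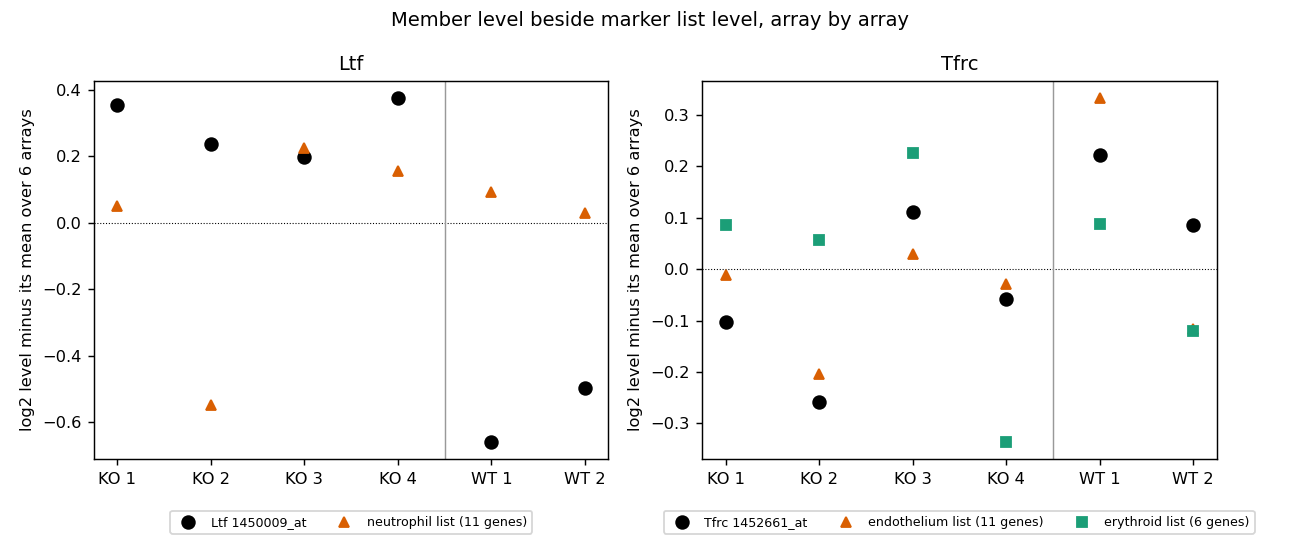
Log2 level on each array minus its mean over the 6 arrays, for Ltf with the neutrophil list on the left and for the bright Tfrc probe set with the endothelium and red cell (erythroid) lists on the right, knockout arrays left of the grey line. Ltf separates the groups while the neutrophil list does not, and Tfrc and the endothelium list are both lowest on knockout 2 and highest on wild type 1. On wild type 2 they part, with Tfrc above its mean and the endothelium list below.

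Tfr2, the second receptor, had 2 probe sets of moderate signal that overlapped between groups. Probe set 1425381_a_at read 622.6, 395, 698.8 and 695.4 in knockouts 1 to 4, against 520.5 and 364.6 in wild types 1 and 2. Knockout 2 lay between the wild types and the other 3 knockouts above both. The mean was 603 ± 143 (SD, n = 4) in knockout brains and 442.6 ± 110.2 (SD, n = 2) in wild-type brains. The log2 fold change was 0.39 ± 0.27 (standard error), with a 95% interval from -0.21 to 0.997 (limma adjusted p = 0.783, exact permutation p = 0.333). It was 0.57 without knockout 2, 0.63 without wild type 1, 0.16 without wild type 2 and 0.18 after median centring.

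The other Tfr2 probe set, 1459994_x_at, has a suffix that marks probes which may also bind other transcripts. It read 289.8, 355.2, 376.2 and 787.3 in knockouts 1 to 4, against 358.5 and 285 in wild types 1 and 2. Knockout 4 stood far above every other array, and the remaining 3 knockouts lay within or just above the span of the wild types. The log2 fold change was 0.35 ± 0.36 (standard error; limma adjusted p = 0.850), and it was 0.071 without knockout 4, 0.20 without wild type 2 and 0.13 after median centring. The fold changes of the 2 Tfr2 probe sets differed by 0.047 (exact permutation p = 0.933, adjusted p = 0.933 over the 4 pairs).

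Genes of the transferrin cycle, which acts on the receptor after it has bound transferrin, went both ways. The list covered clathrin uptake, endosomal sorting, acidification, ferric reduction and iron release, and 24 of its 26 genes were measured by 65 probe sets. None passed in limma. At an unadjusted p below 0.05, 3 probe sets were higher and 3 lower (9.23% together, against 6.76% of all probe sets, 4.92% higher and 1.84% lower). The median log2 fold change was 0.055, against 0.078 over all probe sets. Every knockout lay above both wild types on 7 of the 65 probe sets and below both on 5. Over all probe sets these shares were 11.3% and 4.81%. Clta, a clathrin light chain, read 599.5, 627.3, 649.8 and 617.7 in knockouts 1 to 4, against 326.4 and 383.3 in wild types 1 and 2 on its dimmest probe set, 1444328_at. There the log2 fold change was 0.74 ± 0.20 (standard error; limma adjusted p = 0.737), while on its 2 bright probe sets it was 0.16 and 0.072. Dnm2, the dynamin that cuts coated pits free, had 7 probe sets. Its 1423629_at read 1214.8, 1087.9, 1017.3 and 1449.5 in knockouts 1 to 4, against 621.8 and 839.7 in wild types 1 and 2, a log2 fold change of 0.67. Another was 1.09 with a standard error of 0.43, and the other 5 lay between -0.12 and 0.32.

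Of the cycle genes with small unadjusted p and a negative sign, Mcoln1 encodes a cation channel of late endosomes and lysosomes that can release iron. Its probe set 1416671_a_at averaged 1037 ± 174.4 (SD, n = 4) in knockout brains and 1486 ± 203.4 (SD, n = 2) in wild-type brains, a log2 fold change of -0.51. Its second was -0.31 and its dimmest -0.17. Ehd1, which drives recycling of receptors to the surface, averaged 377.6 ± 106 (SD, n = 4) in knockout brains on 1448175_at. The wild-type mean there was 660.9 ± 152.8 (SD, n = 2), a log2 fold change of -0.75. Its other 3 probe sets were -0.72, -0.34 and 0.17. The -0.34 and 0.17 came from its brightest probe sets, on which the groups overlapped, and the -0.72 from its dimmest. For both genes limma gave an adjusted p of 0.737. Hfe, which encodes a binding partner of transferrin receptor 1, had log2 fold changes of -0.12 on the brighter of its probe sets and 0.45 on the dimmer. The endosomal ferric reductase gene Steap3 was dim on all 3 of its probe sets, at means of 50.6 to 83.3 in the knockout and 23.1 to 58.0 in wild type. Slc11a2, which carries iron out of endosomes into the cytosol, was 0.78, 0.40, -0.099 and -0.036 on its 4 probe sets. The 0.78 came from the dimmest of them and the -0.099 from the brightest. On the first 2 every knockout lay above both wild types, as on 11.3% of all probe sets. Their unadjusted p in limma was 0.0714 and 0.205.

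Genes that sense, store and export iron inside cells were measured for 18 of 19 listed, on 35 probe sets. None passed in limma. At an unadjusted p below 0.05, 3 probe sets were higher and 1 lower (11.4% together, against 6.76% of all probe sets). The median log2 fold change was -0.072, against 0.078 over all probe sets. Every knockout lay above both wild types on 4 of the 35 probe sets and below both on 5. Over all probe sets these shares were 11.3% and 4.81%. Cp encodes ceruloplasmin, the copper ferroxidase that loads iron on to transferrin. Its probe set 1417496_at read 426.7, 455.5, 451.8 and 417.8 in knockouts 1 to 4, against 198.1 and 298 in wild types 1 and 2, a log2 fold change of 0.73 ± 0.25 (standard error; limma adjusted p = 0.737). Every knockout lay above both wild types there, as on 11.3% of all probe sets. The other 7 Cp probe sets overlapped, with log2 fold changes from -0.33 to 0.060, and the brightest of them was -0.024. The iron regulatory protein genes Ireb2 and Aco1, whose products stabilise the Tfrc transcript when iron is scarce, were -0.072 and, on the brightest Aco1 probe set, -0.17. The other genes the naming rule took were Tmprss6, a protease that restrains hepcidin, at 1.29, the mitochondrial iron importer Slc25a37 at 0.41, the ferritin receptor Ncoa4 at -0.32 and 0.11, and the ferritin heavy chain gene Fth1 at 0.25 on both probe sets.

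A list of 15 other receptors and ligands, which also held ferritin receptors, was measured in full by 26 probe sets. None passed in limma. At an unadjusted p below 0.05, 1 was higher and 1 lower (7.69% together, near the 6.76% of all probe sets), and the median log2 fold change was 0.071. Every knockout lay above both wild types on 2 of the 26 probe sets and below both on 2. Over all probe sets these shares were 11.3% and 4.81%. Scara5, a scavenger receptor that takes up ferritin, read 181.9, 187.5, 187.8 and 284.6 in knockouts 1 to 4, against 6.9 and 68.9 in wild types 1 and 2 on 1431336_at, a log2 fold change of 1.65 ± 0.41 (standard error; limma adjusted p = 0.737). Its second probe set was -0.51, with a mean of 26.7 ± 12.4 (SD, n = 4) in knockout brains and 59.9 ± 31.1 (SD, n = 2) in wild-type brains. Lrp1, a large endocytic receptor with lactotransferrin among its ligands, averaged 3575 ± 94.2 (SD, n = 4) in knockout brains and 4181 ± 638.4 (SD, n = 2) in wild-type brains on its bright probe set, a log2 fold change of -0.22, and had one of 0.60 on its dim probe set. Plau, the urokinase plasminogen activator, was 0.75 and 0.61, and Ca14, a carbonic anhydrase, was -0.50. The Plau probe set at 0.75, 1422139_at, was very dim. It read 11.7, 5.2, 79.4 and 94.1 in knockouts 1 to 4, against 2.6 and 3.6 in wild types 1 and 2. The link of Ca14 to the transferrin family is not certain, and the 1 lower call of this list is its own. After median centring the medians of the 3 lists were -0.16, -0.29 and -0.14, against -0.14 over all probe sets.

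**Figure D4:**
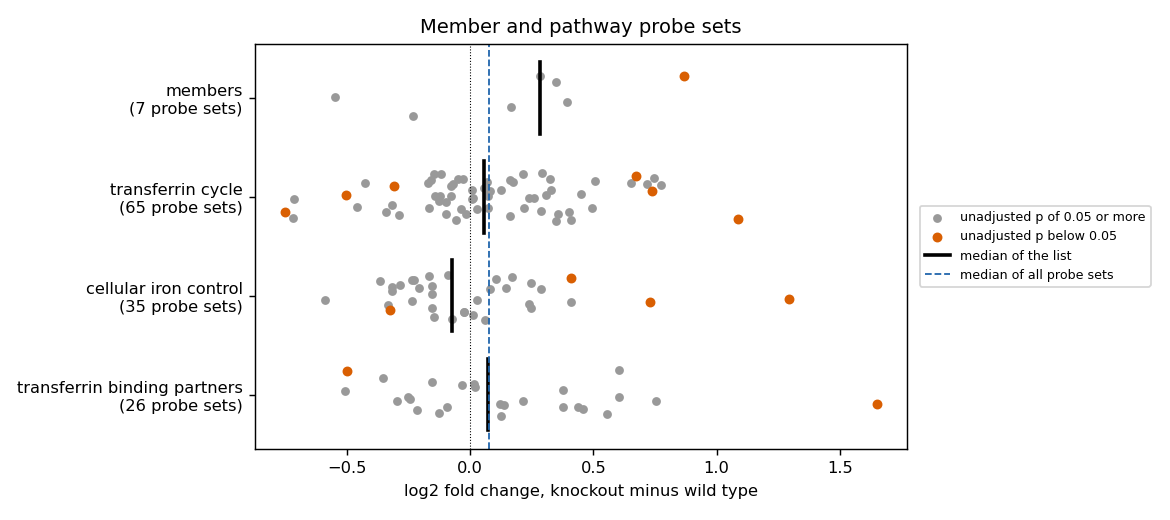
Log2 fold change (knockout minus wild type) of each probe set of the members and of 3 iron-related gene lists, with black bars at list medians, a dashed line at the median of all probe sets (0.078), and orange points at an unadjusted p below 0.05. Points of every list lie on both sides of 0, and the list medians are 0.055, -0.072 and 0.071.

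The array-to-array pattern of each member's brightest probe set was set against 23062 probe sets with 1 symbol that passed the dim filter, by Pearson r over 6 arrays, as a description. The 6 arrays are few and fall in 2 groups, and no r was tested. Of the 23062 candidates, 407 had an r above 0.9 with Ltf, 199 with Tfrc, 112 with Tfr2 and 65 with Meltf. The genes most like Ltf were Nolc1, a nucleolar protein, the sphingosine phosphate receptor gene S1pr3 and the apolipoprotein gene Apoc3, each at an r of 0.99 or more. Nolc1 read 318.5, 285.5, 282.5 and 333.2 in knockouts 1 to 4, against 169.2 and 179.7 in wild types 1 and 2. For Tfrc they were Zfp619, Mbd3 and Prpsap2, for Tfr2 they were Cdkn1c, Brms1 and Rbm11, and for Meltf they were Tomm20, Fdps and Mdh2, with r from 0.98 to 0.99.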

How the data were processed

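Brain RNA of 4 knockout and 2 wild-type mice was measured on 6 arrays. The authors deposited linear signal intensities, 1 for each probe set on each array, and GCOS 1.3 is the tool named in the submitters' processing notes. How probes were summarised and scaled, and whether calls of presence were made, is not given in the sources at hand. The trimmed mean, without the top and bottom 2%, was 1000.0 on all arrays.

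Of 45101 probe sets, 64 Affymetrix controls were left out. Of the remaining 45037, 34945 had 1 symbol, 932 several and 9160 none in the platform annotation. Gene identifiers set against assembly GRCm38.p6 changed 0 symbols. Since no genome build is named for the series, the assembly served for names, gene order and start windows, and 4 of 4 members had a window. Protein sequences were not used here.

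Values were taken as log2(signal + 49.5), where 49.5 is the 20th percentile of all values. All 45037 probe sets were fitted with limma 3.58.1 (lmFit, eBayes with an intensity trend) in R 4.3.3, with residual and prior degrees of freedom of 4 and 5.91, 2-sided and adjusted by Benjamini-Hochberg. Single probe sets and differences between probe sets had 2-sided exact permutation tests over 15 splits, which cannot go below 0.0667. The fit was tested on simulated data. Figures used Python 3.11.15.

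Alternatives were other offsets, a dim filter, quantile normalisation, median centring, no intensity trend and each array left out. Named genes were all member probe sets, the 4 genes per list with the smallest p, Slc11a2, Steap3, Hfe, Fth1, Ireb2 and Aco1, and the 3 genes most like each member. The neutrophil, red cell, endothelium, choroid plexus, oligodendrocyte, astrocyte, neuron, cerebellum and pituitary lists gave summed signals and mean log2 levels of 1 probe set per gene, the brightest. The members and lists were chosen with earlier results of these data known. P-values measure spread between mice and arrays jointly, and the number of arrays limits the precision.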

Additional observations from a re-analysis of the deposited data

Results flagged for a closer look

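The array also carries 3 Affymetrix control probe sets for the mouse transferrin receptor, which the comparisons above did not use. The one for the 5′ part of the transcript read 79.8, 89.2, 133.2 and 73.6 in knockouts 1 to 4, against 43.9 and 38.9 in wild types 1 and 2, so that every knockout lay above both wild types. The same held for 11.3% of all 45037 non-control probe sets, and both wild-type values here lay below the added 49.5. The difference was 0.64 on the log2(signal + 49.5) scale (2-sided exact permutation p = 0.0667, the smallest this design allows). The control for the middle part read 48.8, 39.7, 15.8 and 20.1 in knockouts and 5 and 20.2 in wild types, a difference of 0.37 (exact permutation p = 0.267). The one for the 3′ part read 22.1, 125.1, 66 and 106.1 in knockouts and 53.5 and 113.7 in wild types, a difference of -0.083 (exact permutation p = 0.933). All 18 values were 133.2 or less, and 9 of them lay below the added 49.5.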

How the results depend on the processing

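In 81 refits of the 7 member probe sets with other settings, 0 reached the adjusted threshold in limma and 78 kept their direction. The exceptions were dim Tfrc probe sets: 1422967_a_at, at -0.026 after quantile normalisation and -0.047 after median centring, and 1422966_a_at, at -0.16 without wild type 2. The value of 1422966_a_at without wild type 1 was 0.72, in its own direction. The fold change of 1422966_a_at minus that of 1422967_a_at ran from -0.22 to 0.45 with 1 array left out, and that of Tfr2 1425381_a_at minus 1459994_x_at from -0.13 to 0.25. The negative ones were -0.13 without knockout 1, -0.077 without the third knockout and -0.041 when wild type 2 was left out.

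Counts over all probe sets depended on the 2 wild-type arrays. With 1 array left out, 0 to 171 passed the adjusted threshold, 171 of them without wild type 2, and 1624 (without wild type 1) to 5337 (without wild type 2) had an unadjusted p below 0.05. Probe sets with every knockout above every wild type were 6774 to 15716, and those with every knockout below were 3019 to 7513. With all arrays they were 2747 above (10.2%) and 1654 below (6.12%) among the 27022 that passed the dim filter. Among all 45037 they were 3245 above and 3288 below after quantile normalisation, and 1850 above and 6286 below after median centring, against 5075 (11.3%) and 2167 (4.81%) with the settings of the report.

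The median log2 fold change of the transferrin cycle list was -0.028 among probe sets that passed the dim filter and -0.16 after median centring, and 0.018 to 0.087 with 1 array left out. That of the cellular iron control list was -0.29 after median centring, and -0.053 to 0.049 with 1 array left out. That of the binding partner list was 0.16 with a 4-fold smaller offset and -0.065 among probe sets that passed the dim filter. It was -0.012 after quantile normalisation and -0.14 after median centring, and -0.068 to 0.14 with 1 array left out. No member of the 3 lists passed in any of these fits, and the causes were not tested. No paired analysis was possible because the labels give no number shared by mice of both groups. The dimmest Tfrc and Steap3 probe sets lie near or below the added 49.5, where the offset sets the size of a fold change. Values of Plau 1422139_at and of both Scara5 probe sets also lie below it.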
